A study of Mus musculus with 8 samples.

Results

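Collagens and laminins are the structural chains of the extracellular matrix, and 55 of their genes, 44 collagens and 11 laminins, were examined among 21887 protein-coding genes for binding of retinoid X receptors (RXR) in the newborn mouse heart. The genes were taken by name (all Col genes with a number and an alpha chain, and all Lama, Lamb and Lamc genes), and an RXR peak was counted for a gene when its summit lay within 10 kb of either end of the gene. The assay was ChIP-seq, the sequencing of DNA pulled down with an RXR antibody, at postnatal day 0. The edKO group held 2 hearts, replicates 3 and 4 (edKO3 and edKO4), with Rxra and Rxrb deleted in cardiomyocytes (RXRab-/-), and the WT group held 2 wild-type hearts, also replicates 3 and 4 (WT3 and WT4). Each single heart was fixed with DSG and FA and provided 1 RXR immunoprecipitate with its own input, and the 4 peak lists had been called by the authors heart by heart. The chromatin came from the total heart, so an edKO sample also holds cells that were not the target of the deletion. What drives the deletion is not stated in the labels, and peak lists do not measure the deletion itself.

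RXRs are nuclear receptors that bind DNA mostly as partners of other nuclear receptors, on copies of the short sequence AGGTCA. Collagen chains wind into triple helices: the fibrillar collagens carry tension in the interstitium, while collagen IV forms the network of basement membranes together with the laminins, trimers of an alpha, a beta and a gamma chain. In the heart, basement membranes surround each cardiomyocyte and capillary, and fibrillar collagen comes mainly from fibroblasts.

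The stretches of sequence below are shown because the summits of RXR peaks fell inside them at or beside a gene of the list. They are from the RefSeq promoter table of GRCm38.p6, written 5′ to 3′, and capitals mark AGGTCA on the printed strand. The stretch between Rxrb and Slc39a7 (chr17:34031691-34031811, + strand) holds the summits of edKO4 and of both WT hearts at the region counted for Col11a2, and that upstream of Adrm1 (chr2:180171338-180171587, + strand) holds the summits of both WT hearts at a region counted for Lama5. The stretches upstream of Lama5 (chr2:180225905-180226109, - strand), between Lamb2 and Usp19 (chr9:108490531-108490606, + strand) and at the 5′ end of Col23a1 (chr11:51289690-51289719, + strand) hold summits of WT3 alone.
Rxrb-Slc39a7: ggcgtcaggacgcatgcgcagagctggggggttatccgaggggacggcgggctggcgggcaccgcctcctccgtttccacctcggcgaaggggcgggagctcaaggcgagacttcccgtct
Adrm1: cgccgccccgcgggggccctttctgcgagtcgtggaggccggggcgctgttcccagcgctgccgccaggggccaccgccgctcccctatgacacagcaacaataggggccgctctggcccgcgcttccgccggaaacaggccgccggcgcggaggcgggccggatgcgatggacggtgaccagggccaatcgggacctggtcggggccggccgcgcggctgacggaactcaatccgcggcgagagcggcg
Lama5: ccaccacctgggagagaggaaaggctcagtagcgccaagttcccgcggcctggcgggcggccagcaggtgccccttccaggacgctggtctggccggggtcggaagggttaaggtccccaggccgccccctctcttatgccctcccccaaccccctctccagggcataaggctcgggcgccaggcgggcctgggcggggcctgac
Lamb2-Usp19: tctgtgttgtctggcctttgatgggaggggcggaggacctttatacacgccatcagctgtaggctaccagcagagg
Col23a1: ttgcaagtgtcagaaAGGTCAatctacaag

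AGGTCA, searched on both strands, was found in 1 of the 9 promoter windows that held a summit counted for these genes. That window was the one of Col23a1, where the motif starts at base 16 of the 30 printed. Only the windows of Lama5, Col4a1 and Col23a1 belong to list genes. The others are of neighbouring genes, and those of Gm29886 and Adrm1 overlap, as do those of Rxrb and Slc39a7. Summits outside promoter windows, such as those shared at Lama4, Col12a1 and Col4a2, could not be searched, so the windows do not stand for all regions. Among 44 promoters of list members AGGTCA was in 8, or 18.2%, against 16.3% of all 32851 promoters of the same length. Direct repeats of AGGTCA with a spacer of 0 to 5 bases were in none of the 44 and in at most 0.0396% of all promoters. The 9 windows had a median GC content of 69.0%, the promoters of list members 59.5% and all promoters 52.7%.

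The WT hearts had RXR peaks near these genes and the edKO hearts nearly none. There were 0 peaks in edKO3 and 1 in edKO4, against 42 in WT3 and 12 in WT4. The groups did not overlap, but the 2 WT hearts differed widely between themselves. The mean was 0.5 ± 0.707 peaks in edKO hearts and 27 ± 21.2 in WT hearts (SD, n = 2 each), a difference of -26.5, with p = 0.333 in a two-sided exact permutation test over hearts, the smallest p that 2 hearts against 2 allow. Without WT3 the difference was -11.5, and without WT4 it was -41.5. The whole lists differed in the same direction, with 8 peaks in edKO3 and 127 in edKO4, against 19129 in WT3 and 4697 in WT4. The difference is therefore not particular to these genes. In chromatin of a whole heart, binding in fewer cells and less binding per cell cannot be told apart. Total depths are not known from peak lists, so whether depth differed between hearts was not tested.

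The peaks near these genes were a small part of each list: 0 of 8 in edKO3, 1 of 127 (0.787%) in edKO4, 42 of 19129 (0.22%) in WT3 and 12 of 4697 (0.255%) in WT4. The weakest listed peaks also differed between lists. In edKO3, with 8 peaks, the weakest need not mark the limit of calling. The lowest −log10 q listed was 3.53 there, against 1.47 in edKO4, 1.37 in WT3 and 1.57 in WT4. The weakest peak had 24 fragments at its summit in edKO3 and 17 in edKO4, against 11 in WT3 and 12 in WT4, and the lowest local background was 3.11 and 2.96 fragments in the edKO hearts, against 2.48 and 2.32 in WT3 and WT4. Of the 42 peaks of WT3 near these genes, 33 had fewer fragments than any peak listed for edKO3, and 12 fewer than any listed for edKO4. By −log10 p, which also takes the local background into account, 16 of the 42 lay below the weakest peak of edKO3 (9.53) and 1 below that of edKO4 (6.03). A gene without a peak in an edKO heart is one without a called peak, and weaker binding cannot be read from these lists.

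Gene by gene, the share of collagens and laminins with an RXR peak within 10 kb lay near the share of all genes. In edKO3 none had a peak and in edKO4 only Col11a2 had one, where 0.0548% and 0.58% of all protein-coding genes had a peak. In WT3 there were 23 (41.8%) with a peak within 10 kb, where 42.4% of all genes had one. The families differed there, with 8 of 11 laminins (72.7%) and 15 of 44 collagens (34.1%). In WT4 there were 10 (18.2%), where 15.8% of all genes had one. A region shared by both WT hearts, that is, peaks overlapping by at least 1 bp, lay near 10 of the 55 genes (18.2%), where the share of all genes was 15.2%. Another 13 genes had a peak in WT3 and none in WT4, a pattern found in 26.9% of all genes, and 32 had no WT peak within 10 kb. Within 1000 bp of its own ends only Lama4, 1 of 55, had a shared region, where 8.38% of all genes did.

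**Figure D1:**
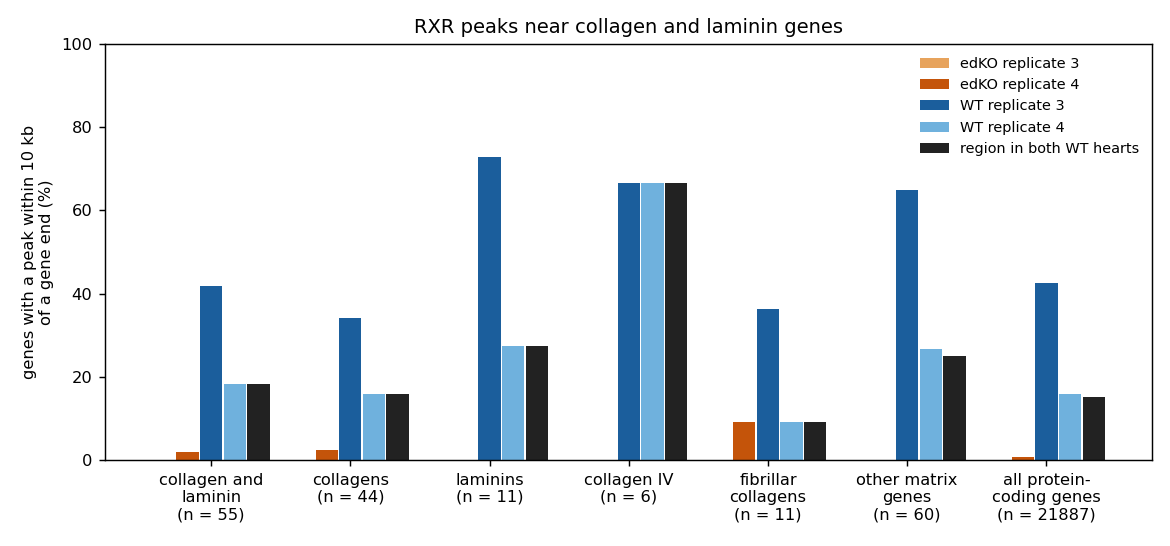
Share of genes, in percent, with an RXR peak within 10 kb of a gene end in each heart, and with a region in both WT hearts (black bars), for collagen and laminin genes, 4 of their groupings, other extracellular matrix genes and all protein-coding genes. The edKO bars of the collagen groups stand for Col11a2 alone. The black bar of the whole list (18.2%) lies near that of all genes (15.2%), with collagen IV, at 4 of 6 genes, the highest.

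By class, the genes with a shared region were as follows, where 15.2% of all genes had one. Of the 6 collagen IV genes 4 had one, namely Col4a1, Col4a2, Col4a3 and Col4a4. Of the 11 laminin genes 3 had one (Lama4, Lama5 and Lamb3), which is 2 of 5 alpha chains, 1 of 3 beta chains and 0 of 3 gamma chains. Single genes were near one among the 11 fibrillar collagens (Col11a2), the 9 fibril-associated collagens (Col12a1) and the 3 collagens outside the other classes (Col7a1). The 6 collagen VI genes, 3 network collagens, 2 multiplexins and 4 transmembrane collagens had none. The classes are small and neighbouring genes share regions, so the 4 collagen IV genes rest on 3 regions.

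Most collagen IV genes were near shared regions. Col4a1 and Col4a2, the chains of the collagen IV of most basement membranes, overlap at their 5′ ends on chromosome 8 and are read in opposite directions. Neither edKO heart had a peak there. The first shared region (chr8:11308503-11308932) lay inside Col4a1, 4071 bp from its 5′ end, with fold enrichments of 6.89 in WT3 and 5.23 in WT4. At the second (chr8:11313874-11314285), inside Col4a2 and 1315 bp from its 5′ end, the fold enrichment was 8.59 in WT3 and 4.12 in WT4, on 33 and 16 fragments at the summit. WT3 had a further peak, at a fold enrichment of 4.88, inside both genes and 15 bp from the 5′ end of Col4a1. WT4 had none there, and it alone had a peak 8230 bp beyond the 3′ end of Col4a2, inside Rab20, at a fold enrichment of 7.59.

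The strongest regions of this locus lay deeper in Col4a2, beyond the distance of 10 kb. At 21.9 kb from its 5′ end the fold enrichment reached 23.3 in WT3 and 8.95 in WT4, with 80 and 36 fragments. At 27.6 kb it was 10.9 in WT3 and 4.84 in WT4. At 69.9 kb the values of WT3 and WT4 lay closest, at 6.6 and 6.19. Over both genes and 10 kb on either side there were 0 peaks in each edKO heart, against 18 in WT3 and 6 in WT4. Of these, 5 peaks of each WT heart formed shared regions.

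**Figure D2:**
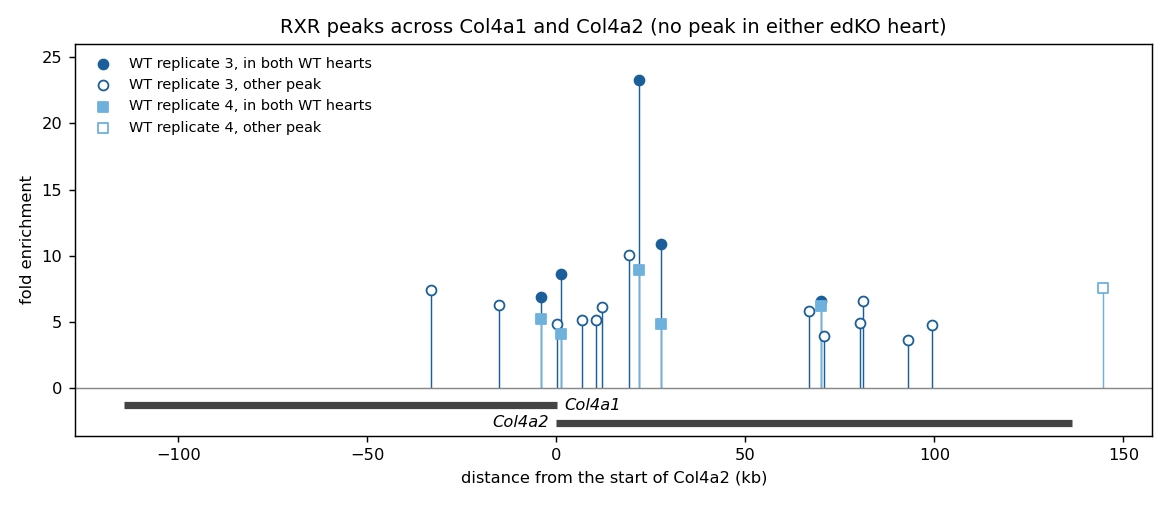
RXR peaks of the WT hearts across Col4a1 and Col4a2, by fold enrichment and by distance from the start of Col4a2 in kb. Filled symbols are peaks in both WT hearts, open symbols the others, and bars below 0 mark the genes. The shared peaks lie on both sides of the start of Col4a2, with the highest at 21.9 kb, and neither edKO heart had a peak in the stretch.

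Col4a3 and Col4a4, chains of the collagen IV of the kidney glomerulus, also lie head to head, on chromosome 1. Their shared region (chr1:82577938-82578184) had the lowest mean fold enrichment of the 10 counted within 10 kb. It had no peak in either edKO heart, and fold enrichments of 3.56 in WT3 and 4.26 in WT4. The summit of WT3 lay 8936 bp inside Col4a4 and 8823 bp outside Col4a3, and it was the farthest from a gene end of all shared regions counted.

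Among the laminins, Lama4, an alpha chain of endothelial and muscle basement membranes, had the only shared region within 1000 bp of an end of a list gene (chr10:38965182-38965598), with the summit of WT3 at 44 bp outside the gene. There was no peak in either edKO heart, against fold enrichments of 5.81 in WT3 and 5.55 in WT4, a mean of 5.68 ± 0.187 (SD, n = 2). The summits rested on 22 fragments in WT3 and 18 in WT4, with −log10 p values of 12.8 and 10.2 in WT3 and WT4, above the lowest value listed for edKO3 (9.53) and for edKO4 (6.03).

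Lama5, an alpha chain of mature vascular and epithelial basement membranes, had 2 shared regions and no edKO peak. The one beyond its 5′ end (chr2:180227602-180227902), 1816 bp outside, had fold enrichments of 6.87 in WT3 and 7.88 in WT4. The one beyond its 3′ end (chr2:180171172-180171828) had fold enrichments of 7.03 in WT3 and 4.84 in WT4. It lay 4870 bp from Lama5 but 85 bp from Adrm1, a proteasome subunit gene, and its summits fall in the Adrm1 sequence printed above. In the printed Lama5 stretch, 86 bp outside the gene, WT3 alone had a peak, at a fold enrichment of 5.17.

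Lamb3, a beta chain of the laminin that anchors the skin epithelium, had a shared region 7521 bp inside its 3′ end (chr1:193336213-193336759). The edKO hearts had no peak there, and the fold enrichment was 5.52 in WT3 and 4.84 in WT4. Farther inside the gene stood a pair of shared regions. At 21.9 kb from an end the fold enrichment was 9.01 in WT3 and 4.84 in WT4, and at 23.2 kb it was 7.03 in WT3 and 7.64 in WT4.

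Within 10 kb, Lamb2, Lamb1 and Lamc1 had peaks in WT3 and none in WT4, a pattern found in 26.9% of all genes. Lamb2, a beta chain of muscle and kidney basement membranes, had no peak in either edKO heart or in WT4. In WT3 it had 3 peaks, at fold enrichments of 8.61 (937 bp outside its 5′ end), 5.57 (134 bp inside it) and 4.47 (72 bp outside its 3′ end and 5 bp from Usp19, in the sequence printed above). Lamb1, the common beta chain, had 2 peaks in WT3, at fold enrichments of 4.83 and 4.51 inside the gene, and none in the other hearts. Lamc1, the gamma chain of most laminins, had 3 peaks within 745 bp of an end, at fold enrichments of 4.59, 4.02 and 3.20, in WT3 only. Lamc1 also had a shared region 40.5 kb inside, with no edKO peak and fold enrichments of 16.1 in WT3 and 8.95 in WT4, on 55 and 36 fragments. Lama2, the alpha chain of muscle basement membranes, had no peak within 10 kb in any heart, and a single peak of WT3, at a fold enrichment of 6.39, lay 209 kb from its nearer end.

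Of the 11 fibrillar collagens, 4 (36.4%) had a peak in WT3 and 1 (9.09%) a shared region, where 42.4% and 15.2% of all genes did. Col1a1, the main chain of collagen I, had none in the edKO hearts or in WT4. WT3 had 2 peaks, 7363 bp and 5178 bp outside the gene, at fold enrichments of 5.45 and 4.02. Col1a2, Col3a1 and Col5a1 had no peak within 10 kb in any heart. Inside Col5a1, a chain that takes part in starting collagen fibrils, WT3 had 4 peaks beyond 10 kb, at fold enrichments between 2.98 and 5.74, and no other heart had one.

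Col11a2, a minor fibrillar collagen of cartilage, carried both the highest values of the list and its only edKO peak. The fold enrichment was 5.63 in edKO4, with no peak in edKO3, against 35 in WT3 and 19.5 in WT4. The peaks had 32 fragments at the summit in edKO4, against 131 and 100 in WT3 and WT4. The region (chr17:34031508-34032753) ranked 74 among the 4342 shared regions by mean fold enrichment. Its position does not mark it as one of Col11a2: the summit of WT3 lay 7188 bp from Col11a2, 41 bp from Slc39a7, a zinc transporter gene, and 81 bp from Rxrb, the gene of RXR beta and a target of the deletion in edKO hearts. Of all 4342 shared regions, 2.88% had a peak in edKO4 and 0.184% one in edKO3. Among the 10 counted here it was 1 of 10, this one, and 0 of 10.

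Of the other collagens with shared regions, Col12a1, a fibril-associated collagen of tendon and interstitium, had the highest mean fold enrichment within 10 kb. Inside the gene, 6533 bp from an end (chr9:79714373-79714811), there was no peak in either edKO heart, against fold enrichments of 10.9 in WT3 and 6.12 in WT4, with 40 and 23 fragments. The region counted for Col7a1, the collagen of the anchoring fibrils of skin, lay 6724 bp outside it and inside Pfkfb4, a glycolytic regulator (chr9:108991266-108992042). It had no edKO peak and fold enrichments of 7.46 in WT3 and 6.12 in WT4.

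**Figure D3:**
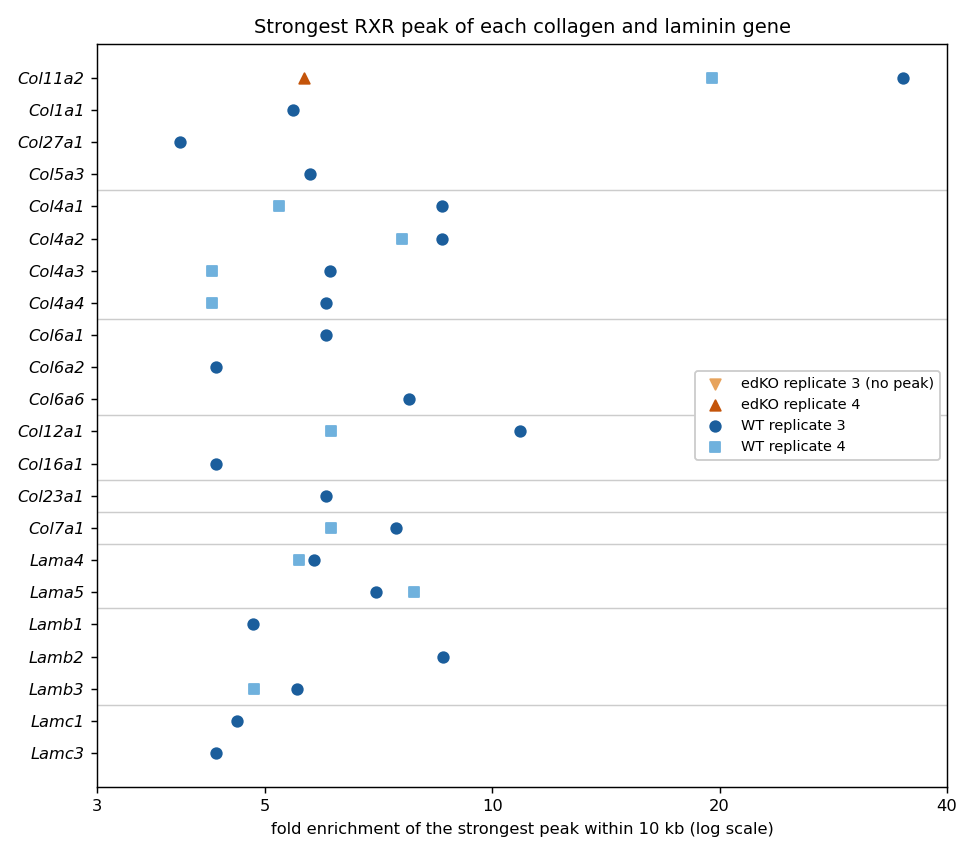
Fold enrichment, on a log axis, of the strongest peak within 10 kb of collagen and laminin genes with a peak, by heart. Col11a2 has the only point of an edKO heart (5.63) and the highest values, 35 and 19.5 in WT3 and WT4, while the genes with a peak in WT3 alone lie between 3.86 and 8.61.

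Collagen VI, which forms beaded filaments around muscle cells, had no edKO peak and no peak in WT4. In WT3, Col6a6 had peaks at fold enrichments of 7.75 and 5.31, Col6a1 at 6.03 and 4.18, and Col6a2 at 4.31. Also in WT3 alone, Col23a1, a transmembrane collagen, had 4 peaks at fold enrichments between 3.98 and 6.03, and Col5a3, a minor fibrillar collagen, had 1 at 5.74. The Col23a1 peak in the printed sequence, 25 bp inside the 5′ end, had a fold enrichment of 4.02 on 13 fragments, and the highest of the 4 lay 79 bp from Phykpl. The multiplexins Col15a1 and Col18a1, basement membrane collagens, had no peak within 10 kb in any heart. Inside the genes WT3 had 2 peaks in each, the highest at 8.04 in Col15a1 and 5.17 in Col18a1.

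The 10 genes were near 10 shared regions in all, since some genes had a pair of regions and some regions served a pair of genes. The summits of the WT hearts lay between 2 and 120 bp apart. The fold enrichment was higher in WT3 at 8 of the 10 regions, and at 82.7% of all shared regions, on values that are not scaled between hearts. The median over the 10 regions was 6.96 in WT3 and 5.39 in WT4, against 9.47 and 6.13 over all 4342 shared regions in WT3 and WT4. Taking for each gene its strongest shared region, the median of the mean fold enrichment was 6.35 for the 10 genes and 7.97 for all genes with one. In both WT hearts 9 of the 10 regions had at least the 17 fragments of the weakest edKO4 peak, and 3 had at least the 24 of the weakest edKO3 peak. By −log10 p, 8 of the 10 were at or above the weakest edKO3 peak in both WT hearts and all 10 at or above the weakest edKO4 peak. Over all peaks near the list, the summits of WT3 had 13 to 131 fragments (median 19) and those of WT4 had 16 to 100 (median 22), where the medians over all peaks were 20 and 23 in WT3 and WT4.

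**Figure D4:**
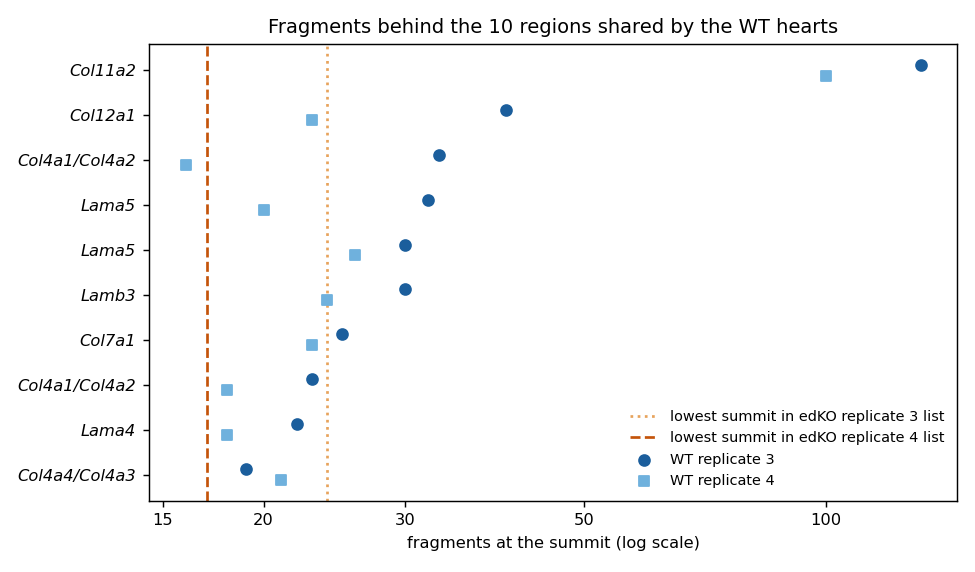
Fragments at the summits of the 10 shared regions in WT3 and WT4, on a log axis, with lines at the lowest number among all listed peaks of edKO3 (24) and of edKO4 (17). The region counted for Col11a2 stands apart at 131 and 100 fragments in WT3 and WT4, and the WT4 points mostly lie below the edKO3 line.

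The summit lay within 1000 bp of an end of any protein-coding gene in 3 of the 10 shared regions (at Lama4, Adrm1 and Slc39a7), and of an end of a collagen or laminin gene in 1 (Lama4). By the first measure, 61.7% of the 2598 shared regions within 10 kb of any protein-coding gene lay within 1000 bp of an end. The nearest gene was a collagen or laminin gene for 7 of the 10 and another gene for 3 (Adrm1, Pfkfb4 and Slc39a7). In WT3 alone, 12 of the 42 peaks were within 1000 bp of an end of a list gene and 16 within 1000 bp of an end of any protein-coding gene, and for 12 the nearest gene was not on the list. Where the table gives a strand, 24 pairs of gene and peak in WT3 were at the 5′ end and 11 at the 3′ end, and 68.3% of such pairs over all genes were at the 5′ end. WT4 had 8 at the 5′ end and 4 at the 3′ end, against 71.5% at the 5′ end over all genes.

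**Figure D5:**
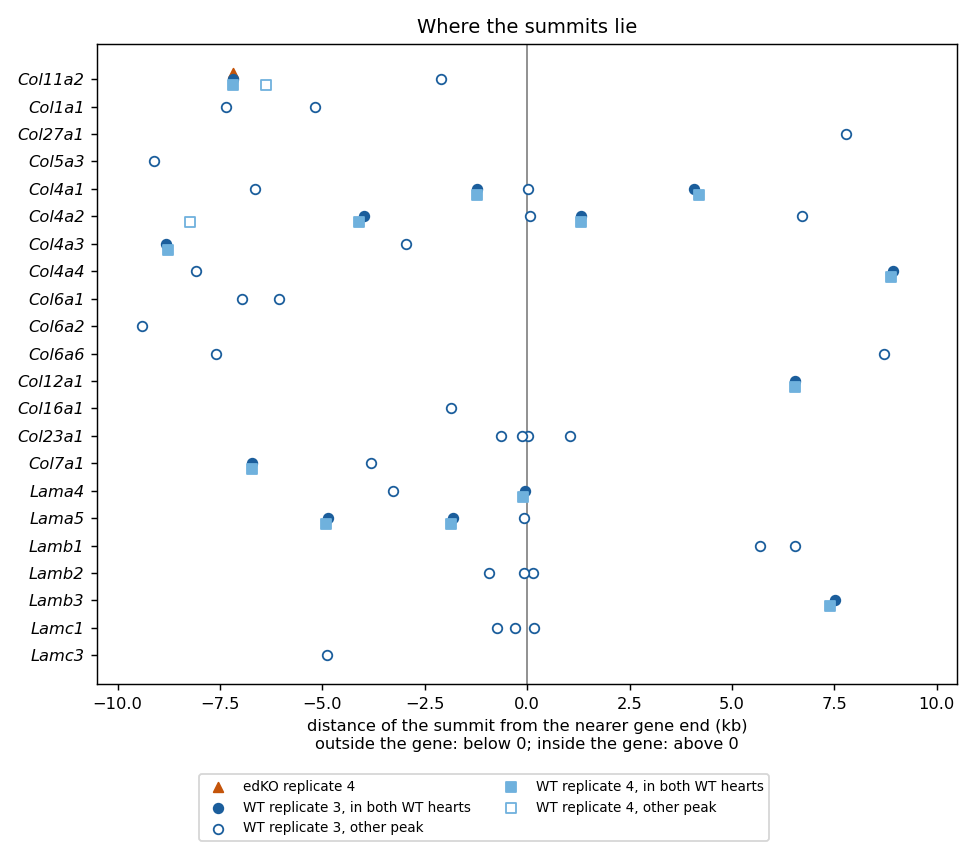
Distance of peak summits from the nearer end of their collagen or laminin gene, in kb, below 0 outside the gene and above 0 inside it, by heart. Filled symbols are edKO4 peaks and the WT peaks joined as shared regions, open symbols the other WT peaks. The open WT4 symbol at Col11a2 is a weaker peak that also overlaps the WT3 peak of the shared region. The only summit of the edKO hearts lies 7.17 kb outside, and a single one of WT4, that at Lama4, lies within 1 kb of an end of its gene.

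At the limit of 10 kb, the last peaks of WT3 counted were at 8936 bp (Col4a4, fold enrichment 3.56), 9106 bp (Col5a3, 5.74) and 9402 bp (Col6a2, 4.31). The next beyond it were at 10102 bp (Col8a2, 5.30), 10346 bp (Col4a1, 5.11) and 10430 bp (Col4a2, the same peak). Counting peaks anywhere inside a gene raised the genes with a shared region to 13 (23.6%), where 17.5% of all genes had one. Under this rule a longer gene covers more sequence, and the genes were not matched for length. Inside the genes and beyond 10 kb of an end, WT3 had 56 peaks in 24 genes and WT4 had 8 in 5 genes. There were 8 shared regions in 5 genes. The edKO hearts had 0 peaks there, where their whole lists held 8 peaks in edKO3 and 127 in edKO4. The share of all genes with a region so placed was not counted.

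Of the 12 peaks of WT4 near these genes, 11 overlapped a peak of WT3 (91.7%, 95% Clopper-Pearson interval 61.5 to 99.8%), and the one that did not was that in Rab20. Over the whole list 4434 of 4697 did (94.4%). The interval covers counting error only, since peaks of 1 heart are not replicates.

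Other extracellular matrix genes, a list of 60, were near shared regions in 15 cases (25%), against 15.2% of all genes. Neither edKO heart had a peak near them, where 0.0548% of all genes had one in edKO3 and 0.58% in edKO4. By class these were 7 of 13 receptors, 4 of 16 genes of collagen synthesis and crosslinking, 2 of 4 other basement membrane genes, 1 of 15 matrix glycoproteins, 1 of 7 turnover genes and 0 of 5 small proteoglycans. Some of the regions lay nearer to another gene. That of P4hb was 10 bp from Arhgdia, that of Loxl3 138 bp from Aup1 and that of Ddr2 545 bp from Hsd17b7. With nearest genes only, 12 of the 60 had a shared region (20%), against 10.4% of all genes. Hspg2, the basement membrane proteoglycan perlecan, had the highest mean, with fold enrichments of 14.6 in WT3 and 9.05 in WT4. Next were Bcam, a laminin receptor (12.3 in WT3 and 5.65 in WT4), Dag1, the dystroglycan that ties laminin to muscle (13.8 in WT3 and 3.87 in WT4), Timp3, a protease inhibitor (6.58 in WT3 and 9.19 in WT4), and the integrin gene Itga3 (10.6 in WT3 and 3.87 in WT4). Within 1000 bp of an end, 7 of the 60 had a shared region (11.7%), against 8.38% of all genes. With peaks of a −log10 q of at least 5 the shares were 13.3% of these genes and 12.6% of all genes, and at a −log10 p of at least 10 they were 11.7% of these genes and 11.1% of all genes.

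Markers of the cell types a heart holds (for example Myh6, Tnnt2 and Ryr2 for cardiomyocytes, Pdgfra, Dcn and Col1a1 for fibroblasts) showed shared regions near 4 of 6 cardiomyocyte genes, 1 of 6 fibroblast genes, 3 of 6 endothelial genes, 0 of 6 smooth muscle and pericyte genes, 1 of 6 macrophage and blood genes and 0 of 4 epicardial genes, where 15.2% of all genes had one. Of all these lists only the cardiomyocyte markers had an edKO peak, with 2 genes in edKO4 and 0 in edKO3, where 0.58% and 0.0548% of all genes had one in edKO4 and edKO3. A peak near a marker is not its expression, and the cell type in which a collagen or laminin region was bound was not tested.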

How the data were processed

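RXR ChIP-seq and input libraries came from 2 edKO and 2 WT hearts. Per the submitters' processing notes, cutadapt, BWA, SAMtools and MACS3 were used on mm10 (GRCm38). No versions or settings of these tools are stated, and the labels name both a 2×50 run and single-end reads. The deposited lists give, per heart, peak positions, the authors' fold enrichment (a ratio over the local background), and the authors' −log10 p and −log10 q. Fold enrichments are not scaled between hearts, so they rank peaks of 1 list and levels are not tested between lists.

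Fragments at each summit were solved from the fold enrichment (pseudocount 1), a scale factor per heart and a Poisson −log10 p. The scale factor was the one that gave whole fragments most often, 0.9915 in edKO3, 0.967 in WT4 and 1 in edKO4 and WT3. With it, a whole number of fragments gave the deposited −log10 p within 0.01 in at least 99.96% of peaks. The total depth of the libraries is not known from peak lists. A WT4 peak was joined to its strongest overlapping WT3 peak, whose summit was used. Where several WT4 peaks were joined to the same WT3 peak, only the strongest was kept. Genes were from the RefSeq table of GRCm38.p6 (21887 protein-coding genes of 49997 entries), and all members and list genes matched. Ends are 5′ or 3′ where the RefSeq promoter table (250 bases before to 50 after a gene's start) gives a strand, which it does for 40 of the 55 genes. The table holds gene bounds but not exons.

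The members and all gene lists were chosen with earlier results of these data known, and no list was tested against other genes. Genes named are those with a shared region or an edKO peak, a set of 16 fixed genes, the 8 with the highest fold enrichment in WT3 alone, and 5 other matrix genes of the highest mean. A gene that meets this rule is not reported here by name, and is counted in the totals only. The only test is the exact permutation test on peak numbers. The labels call single hearts biological replicates. With 2 per genotype the permutation test cannot give a p below 0.333, and its p does not measure the spread between these hearts. Python 3.11.15, numpy 2.4.6, pandas 2.3.3, scipy 1.17.1 and matplotlib 3.10.9 were used, and scripts were tested on simulated data.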

Additional observations from a re-analysis of the deposited data

How the results depend on the processing

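The number of peaks near collagen and laminin genes was lower in edKO than in WT hearts under each alternative run, with differences of -41.5 to -11.5 when 1 heart was left out. The whole lists held 8 and 127 peaks in edKO3 and edKO4, against 19129 and 4697 in WT3 and WT4. The alternative runs could therefore hardly give another direction. The heart numbers are not said to mark a litter or day, so pairing is not given by the design. With the replicate block the difference was -26.5, with p = 0.5 by an exact sign-flip test of 2 pairs, the smallest possible. The edKO lists were too short to check whether hearts of the same number deviate together. Leaving out a heart, 10 to 23 genes had a WT region, the 23 being those of WT3 without WT4 (41.8%, against 42.4% of all genes). There were 6 genes at a −log10 p of at least 10 (10.9%, against 11.1% of all genes), 6 when 50% of both peaks had to overlap (10.9%, against 11.5%), and 1 at 1000 bp. The genes with an edKO peak were 0 to 1 with a heart left out, 0 at 1000 bp and 0 with nearest genes only. The median fold enrichment moved to 7.58 at 50 kb, where 27.3% of the list and 31.9% of all genes had a shared region. Regions within 1000 bp of an end numbered 1 to 12 with a heart left out and 0 with 50% overlap. Other matrix genes with a region numbered 15 to 39 with a heart left out, 7 at 1000 bp, 25 at 50 kb (41.7%, against 31.9% of all genes), 8 at a −log10 q of at least 5 (13.3%, against 12.6%) and 7 at a −log10 p of at least 10 (11.7%, against 11.1%). The share of WT4 peaks that overlap WT3 was 100% at 1000 bp, 100% with nearest genes only and 41.7% with 50% overlap. The alternatives for this share were chosen after seeing the data, and leaving out a WT heart gives it no value. The causes of these moves were not tested, beyond the fewer hearts, peaks or genes that an alternative itself leaves. The lowest listed summit had 24 fragments in edKO3 and 17 in edKO4, and total depths are not known from peak lists.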

Other observations

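Inside collagen and laminin genes and more than 10 kb from an end, WT hearts had regions that the distance rule leaves out. These genes are named after their values were seen. Col28a1, a collagen of nerve basement membranes, had a shared region 87.6 kb from an end, with no edKO peak and fold enrichments of 8.09 in WT3 and 7.01 in WT4. Col13a1, a transmembrane collagen of cell junctions, had one 50.3 kb from an end, with no edKO peak and fold enrichments of 7.75 in WT3 and 5.38 in WT4. Lamc3 had a peak at a fold enrichment of 10.6 in WT3, 30.6 kb from an end, and none in the other hearts. The half-site GGGTCA, also chosen after seeing the data, was in 0 of the 9 promoter windows with a summit, in 5 of 44 promoters of list members (11.4%) and in 13.7% of all promoters.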
